A study of Mus musculus with 8 samples.

Results

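The 35 genes of cholesterol and fatty acid metabolism described here were chosen by name from the gene count table of sorted tumor-infiltrating CD8+ T cells, out of 55335 genes listed. All 35 passed the filter on low counts, among 15378 genes tested. They comprise 18 enzymes of sterol synthesis, 4 SREBP genes and regulators, 9 genes of fatty acid synthesis and 3 of sterol export and transfer. The last is *Cpt1a*, the entry point of fatty acid oxidation. The 4 SREBP genes and regulators are all called regulators below. Of these, *Srebf1* and *Srebf2* encode the SREBP transcription factors, and *Scap* and *Insig1* regulate them. The names were chosen with earlier results of these data known, though not by a threshold on these counts.

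RNA came from sorted CD8+ tumor-infiltrating lymphocytes (TILs) positive for CD44 and PD-1, from C57BL/6 mice bearing implanted MC38 tumors, a mouse colon carcinoma line. The 4 wildtype (WT) samples were from Lsd1f/f mice, in which the Lsd1 gene is floxed but intact, and the 4 LSD1-deficient (KO) samples were from Cd4-Cre+Lsd1f/f mice. Cd4-Cre deletes the floxed gene in developing T cells, in both the CD4+ and the CD8+ lineage. Cells of 2 mice were combined for a WT sample and cells of 1 mouse made a KO sample, so pooling and genotype cannot be told apart. Between 10000 and 20000 cells were sorted for each. The protocol gives day 18 and the series' design text gives 14 days. The WT samples are called S1 to S4 and the KO samples S5 to S8. Values are CPM, which are counts divided by the library total and its TMM factor, unless stated otherwise.

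*Kdm1a*, which encodes LSD1, was at 44.6, 47.2, 42.7 and 44.9 CPM across S1 to S4, against 25.2, 30.5, 32 and 34.8 CPM across S5 to S8. It was lower in every KO sample than in every WT sample, with a log2 fold change of -0.55 (SE 0.14, edgeR quasi-likelihood adjusted p = 0.0163). Library totals ran from 11657807 to 30295406 counts. The floor of 3 counts lay between 0.106 and 0.25 CPM. The 7 defining CD8+ T cell markers were all detected and summed to 3153 to 3734 CPM in WT and 2953 to 3748 CPM in KO, with *Cd2* and *Cd44* higher and *Cd8b1* lower in KO at an adjusted p under 0.05 in edgeR's test. Among 14 tested macrophage markers, 12 were lower in every KO sample than in every WT sample, and the list's summed level was 265 to 739 CPM in WT and 56.4 to 93.6 CPM in KO, highest in S3. None of the macrophage markers was at 0 in all samples. CD4+ T cell markers summed to 5.58 to 9.7 CPM in WT and 16.5 to 47.1 CPM in KO. Epithelial markers, which tumor cells could carry, summed to at most 1.34 CPM in any sample. Markers of dendritic cells, mostly *Zbtb46*, summed to 12.8 to 17.9 CPM in WT and 3.64 to 8.99 CPM in KO. Those of NK cells, in KO mostly *Klrb1c*, summed to 0.381 to 1.32 CPM in WT and 2.32 to 6.56 CPM in KO. The other NK markers, *Ncr1* and *Klra8*, were at most 0.985 and 1.37 CPM in any sample. The endothelial list, nearly all *Pecam1*, summed to 20.4 to 26.3 CPM in WT and 56.2 to 77.3 CPM in KO. Its members *Kdr* and *Cdh5* were at most 0.523 CPM in any sample, and *Kdr* was at 0 in every KO sample. The macrophage, CD4+ T cell, dendritic, NK and endothelial lists did not overlap between genotypes. Their part in the results below cannot be told apart from genotype. In bulk RNA, fewer cells of a type and less RNA per cell cannot be told apart either.

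Cells make cholesterol from acetyl-CoA through the mevalonate pathway, and the arm after squalene converts lanosterol step by step into cholesterol. SREBP2, the product of *Srebf2*, is the main activator of sterol synthesis genes, and SREBP1, the product of *Srebf1*, of fatty acid synthesis genes. SCAP escorts both to the Golgi when sterols are low, and INSIG proteins hold them in the endoplasmic reticulum when sterols are high. Oxysterols activate the LXR receptors, whose targets include the cholesterol exporters *Abca1* and *Abcg1*. Proliferating T cells use these pathways to build membranes.

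The study's thresholds were an adjusted p under 0.01 together with a fold over 1.5. By these, 2 of the 35 genes were higher in KO (*Fads2* and *Cpt1a*), against 2.91% of all tested genes, and 1 was lower (*Abca1*), against 1.99%. The 3 genes make 8.57% of the list, against 4.9% of all tested genes in either direction. A second rule took an adjusted p under 0.05 at any fold, and only genes that passed it are said to have risen or fallen. *Fads2* and *Cpt1a* rose, and *Hmgcs1*, *Idi1*, *Cyp51*, *Fasn* and *Abca1* fell. That is 20% of the list against 11.3% of all tested genes, while 28 genes did not pass. Over all tested genes 6.31% rose and 4.98% fell. Because the list was chosen with earlier results known, its shares here and below are a description and not a test. The log2 fold change was below 0 for 22 genes and above 0 for 13, with a median of -0.17 against -0.01 over all tested genes. Samples of the 2 genotypes did not overlap for 7 genes of the list (6 lower and 1 higher in KO), against 17.3% of all tested genes (8.28% lower and 8.99% higher). With S8 left out, the stricter count went from 3 to 5, with *Cyp51* and *Insig1* added. With the macrophage marker score of each sample as a covariate, 0 of the 35 genes passed either rule in edgeR's quasi-likelihood test. In that fit 67 of all 15378 genes passed at an adjusted p under 0.05 instead of 1737. Of the 35 genes, 4 had an unadjusted p under 0.05, a rule not counted over all genes. The score did not overlap between genotypes, so this fit cannot separate macrophage RNA from genotype. The log2 fold changes in that fit were 4.77 for *Fads2*, 0.90 for *Cpt1a*, -0.40 for *Hmgcs1*, -2.50 for *Idi1*, -0.85 for *Cyp51*, -0.80 for *Fasn* and -1.30 for *Abca1*. They were larger in size than without the covariate for all but *Hmgcs1* and *Abca1*.

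**Figure D1:**
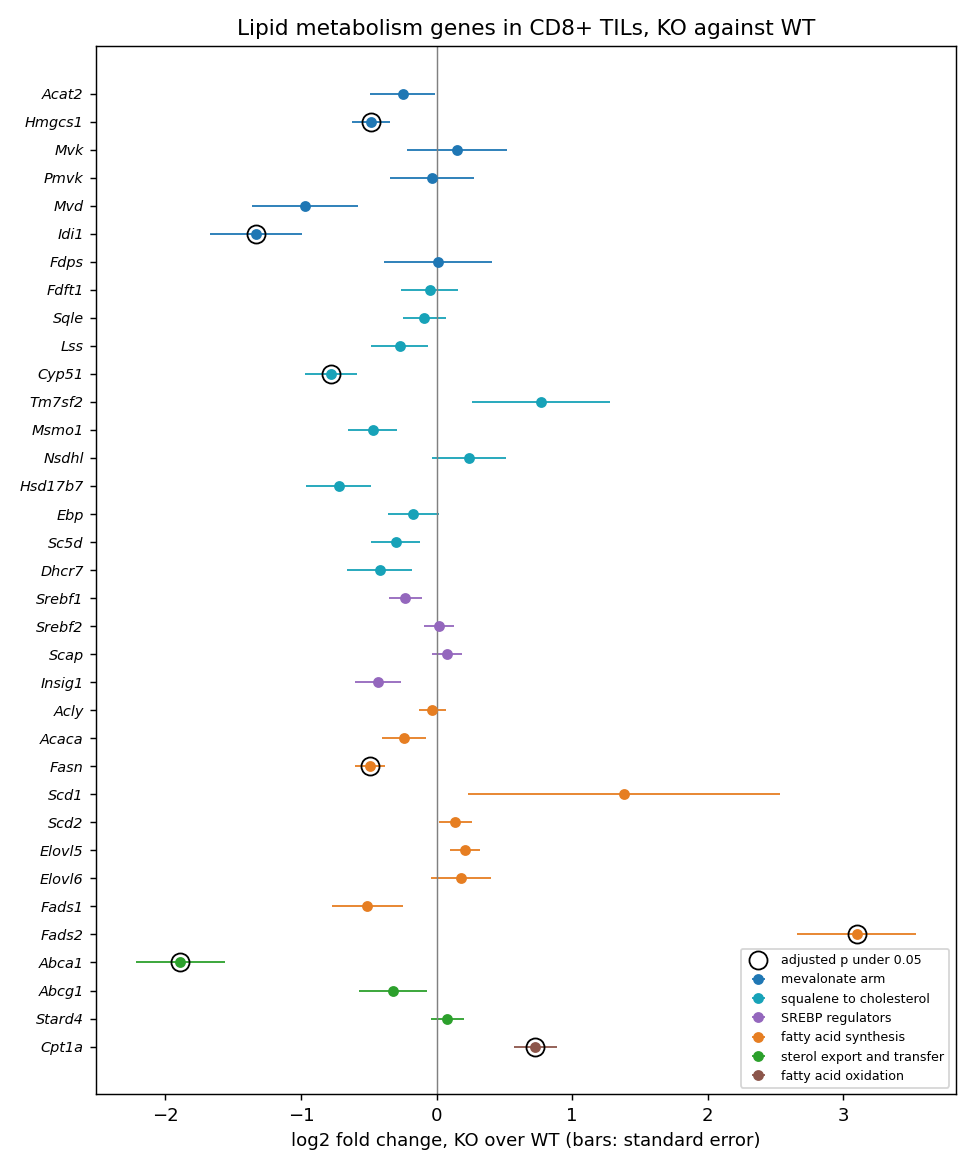
Log2 fold change of KO over WT for each of the 35 genes, ordered by role, with bars for the standard error (4 WT and 4 KO samples) and open circles for an adjusted p under 0.05. *Fads2* at 3.10 and *Abca1* at -1.89 are farthest from 0, and 14 of the 18 sterol synthesis enzymes lie left of the line at 0.

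Of the 18 enzymes of sterol synthesis, *Hmgcs1*, *Idi1* and *Cyp51* fell and 15 did not pass. The 3 calls are 16.7% of the enzymes, against 11.3% of all tested genes called and 4.98% that fell. The log2 fold change was below 0 for 14 of the 18 (77.8%), against 51.4% of all tested genes, with a median of -0.26. None rose, and none passed the stricter thresholds in edgeR's quasi-likelihood test with TMM scaling and the filter. At an unadjusted p under 0.05 there were 6, with no share over all genes taken at that rule. The DESeq2 Wald test had 4 at an adjusted p under 0.05, against 2229 of all 15378 tested genes. *Idi1* and *Cyp51* passed the stricter thresholds with the DESeq2 Wald test, with edgeR's likelihood ratio test and with no filter on low counts, and *Cyp51* also with scaling by library size alone (log2 fold change -0.81, edgeR adjusted p = 0.00744). The summed level of the 18 enzymes per kilobase of exon was 88.8, 106, 103 and 110 RPKM across S1 to S4, against 74.2, 84.3, 64.2 and 90 RPKM across S5 to S8, so S8 exceeded S1.

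*Hmgcs1* encodes cytosolic HMG-CoA synthase, which makes the substrate of the committed step of the mevalonate pathway. It was at 66.4, 85.9, 81.2 and 86.4 CPM across S1 to S4, against 54.5, 63.9, 42.7 and 68 CPM across S5 to S8. S7 was the lowest sample, and the groups overlapped because S8 lay above S1. The level was 1.39-fold lower in KO, a log2 fold change of -0.48 (SE 0.14, edgeR quasi-likelihood adjusted p = 0.042). This call was lost when any of S2, S3, S4, S5, S6 or S7 was left out, with an edgeR adjusted p of up to 0.129 (without S7), and it held without S1 or S8. *Hmgcs1* (ENSMUSG00000093930.2) lies on chromosome 13 of GRCm38 from 119690379 to 119708260, on the plus strand. An annotated gene on the opposite strand, *Gm48342*, shares 557 bases of its exons and had 3 counts in all samples together.

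*Idi1* encodes isopentenyl-diphosphate isomerase, which interconverts the pathway's isoprenoid units. It was at 8.89, 8.77, 9.14 and 12.5 CPM across S1 to S4, against 2.63, 2.34, 4.92 and 5.59 CPM across S5 to S8. S4 was highest, and no KO sample reached a WT sample. Its level was 2.52-fold lower in KO, and the log2 fold change of -1.33 (SE 0.34, edgeR quasi-likelihood adjusted p = 0.0162) was the lowest among the sterol enzymes. Without S4 the adjusted p from edgeR was 0.0676. Of all 43-base windows in *Idi1* transcripts, 31.1% also occur in transcripts of other genes, mainly *Gm13502* and *Gm48574*, so its counts are uncertain.

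*Cyp51*, lanosterol 14-alpha-demethylase, is the first enzyme to act on lanosterol in the later arm. Its level was 76.7, 88.9, 85.4 and 89.3 CPM across S1 to S4, against 50.2, 52.4, 27.5 and 66.8 CPM across S5 to S8. The groups did not overlap, S7 was the lowest sample and S8 the highest of the KO samples. KO was 1.72-fold lower, a log2 fold change of -0.78 (SE 0.19, edgeR quasi-likelihood adjusted p = 0.0116). It held at an adjusted p under 0.05 without any 1 sample, with edgeR adjusted p from 0.00232 to 0.0391, and the log2 fold change was -0.59 without S7. *Akap9* shares 166 bases of exon with it on the opposite strand, and whether counting used strand is not given in the sources used here.

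**Figure D2:**
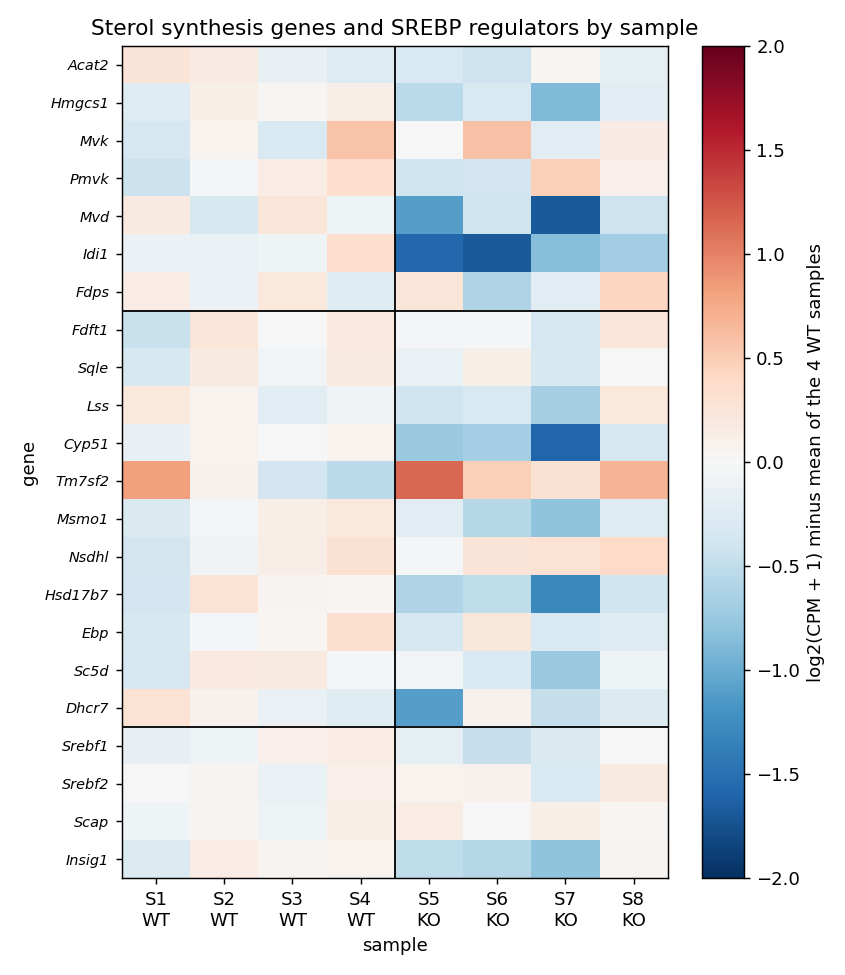
Level of the 18 sterol synthesis enzymes and 4 SREBP regulators in each sample, as log2(CPM + 1) minus the mean of the 4 WT samples, with mevalonate enzymes, later enzymes and regulators separated by lines. Blue is lower than the WT mean. The S7 column holds the lowest KO value for 11 of the 18 enzymes, and the S1 column the lowest WT value for 11.

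Of the other mevalonate enzymes, *Mvd*, the decarboxylase that yields isopentenyl diphosphate, had a log2 fold change of -0.97 (SE 0.39, edgeR adjusted p = 0.129) with every KO sample below every WT sample. It was a low gene, at 5.67 to 8.89 CPM in WT and 1.59 to 5.33 CPM in KO. *Acat2*, the acetoacetyl-CoA thiolase, was at -0.25, *Mvk* (mevalonate kinase) at 0.15, *Pmvk* (phosphomevalonate kinase) at -0.03 and *Fdps* (farnesyl diphosphate synthase) at 0.01 on the log2 scale, and none of these passed. The 7 enzymes of the mevalonate arm thus ranged from -1.33 to 0.15. Other transcripts share 47.3% of the 43-base windows of *Acat2* and 12.4% of those of *Fdps*.

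After squalene, *Hsd17b7*, a ketosteroid reductase of the C4 demethylation complex, was at 12.9, 21.1, 17.9 and 17.5 CPM across S1 to S4, against 10.9, 11.8, 6.43 and 12.7 CPM across S5 to S8. The genotypes did not overlap, although S8 was only just below S1. The log2 fold change was -0.72 (SE 0.24) with an adjusted p of 0.0634 in edgeR's quasi-likelihood test. It was under 0.05 with the DESeq2 Wald test (adjusted p = 0.0459), edgeR's likelihood ratio test (adjusted p = 0.0416), no filter on low counts (edgeR adjusted p = 0.0431) and without S1 (edgeR adjusted p = 0.0398). *Msmo1*, the C4 methyl oxidase, was at -0.47 (SE 0.18, edgeR adjusted p = 0.113), *Dhcr7*, which catalyses the last step to cholesterol, at -0.42 (SE 0.24, edgeR adjusted p = 0.294) and *Sc5d*, the sterol desaturase, at -0.30 (SE 0.18, edgeR adjusted p = 0.327). *Lss*, lanosterol synthase, was at -0.27, *Ebp*, the sterol isomerase, at -0.17 and *Fdft1*, squalene synthase, at -0.05. Other transcripts, mainly of *Ctsb* and *Gm6781*, share 32.6% of the 43-base windows of *Fdft1*, so its counts are uncertain. *Ctsb* shares 774 bases of exon with it on the opposite strand. *Msmo1*, *Dhcr7*, *Sc5d*, *Lss*, *Ebp* and *Fdft1* did not pass in edgeR's quasi-likelihood test.

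*Sqle*, squalene epoxidase, is a rate-limiting enzyme of the later arm. It was at 25.7, 36.6, 31.1 and 36.8 CPM across S1 to S4, against 29.3, 35.1, 25.6 and 31.9 CPM across S5 to S8. The groups overlapped throughout, with a log2 fold change of -0.09 (SE 0.16, edgeR adjusted p = 0.796). *Nsdhl*, the C4 decarboxylase, was at 0.24 and *Tm7sf2*, a sterol C14 reductase, at 0.77 (SE 0.51, edgeR adjusted p = 0.391), the only 2 later enzymes above 0. *Tm7sf2* shares 532 bases of exon on the same strand with *Vps51*, and its level was 1.15 to 4.48 CPM in WT and 2.84 to 5.91 CPM in KO.

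The sterol enzymes varied within each group as well as between genotypes. S7 had the lowest KO value for 11 of the 18 enzymes and the lowest of all 8 samples for 8 of them, whereas S8 had the highest KO value for 8. Over the 35 genes, S7 was the lowest KO sample for 19 and S8 the highest for 17. Within WT, S1 was the lowest sample for 11 of the 18 enzymes and S4 the highest for 9. Over the 35 genes, those WT counts were 16 and 15. S8 was also the library with the most counts.

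None of the 4 regulators passed edgeR's quasi-likelihood test at an adjusted p under 0.05 or the DESeq2 Wald test, and 1 had an unadjusted p under 0.05 in edgeR. *Srebf2*, encoding SREBP2, was at 177, 185, 162 and 192 CPM across S1 to S4, against 188, 190, 145 and 203 CPM across S5 to S8. Its groups overlapped, with a log2 fold change of 0.02 (SE 0.11, edgeR adjusted p = 0.941). *Srebf1*, encoding SREBP1, was at 96.6, 102, 117 and 120 CPM across S1 to S4, against 95.1, 78.1, 89 and 108 CPM across S5 to S8, with a log2 fold change of -0.23 (SE 0.12, edgeR adjusted p = 0.254). *Scap* was at 61.9, 68, 61.3 and 71.3 CPM across S1 to S4, against 72.9, 65.5, 71.5 and 67.6 CPM across S5 to S8, with a log2 fold change of 0.08 (SE 0.11, edgeR adjusted p = 0.726). All 3 overlapped between genotypes.

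*Insig1*, which is itself a target of SREBP, differed from the other regulators in its spread. It was at 59.6, 80.1, 75.2 and 75.4 CPM across S1 to S4, against 50.6, 48, 40.8 and 74.9 CPM across S5 to S8. S5, S6 and S7 were below every WT sample, but S8 lay within the WT range. The log2 fold change was -0.43 (SE 0.17, edgeR quasi-likelihood adjusted p = 0.108) with all samples and -0.64 (edgeR adjusted p = 0.00782) without S8.

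Promoter sequences were compared with motifs of the factors that act on these genes, as a description only. RefSeq promoters on GRCm38.p6 were present for 27 of the 35 genes, and the 250 bases before each start were searched on both strands. *Abcg1*, *Fads1*, *Fdft1*, *Fdps*, *Scd1*, *Scd2*, *Sqle* and *Stard4* had no entry in the table. The sterol response element (TCACNCCAC) occurred in 1 gene, *Hmgcs1*, and in 1.05% of all 32851 promoters. The NF-Y motif (CCAAT), bound by a partner of SREBP, occurred in 20 of the 27 genes and in 33.8% of all promoters. The Sp1 motif (GGGCGG) occurred in 22 genes and 32.7% of promoters, and the E-box (CACGTG) in 7 genes and 6.02% of promoters. An exact LXR repeat (AGGTCA repeated after 4 bases) occurred in none of the genes and 0.0152% of promoters. Only exact matches were searched, so the absence of a match does not show that a gene lacks an LXR site or a site of another factor. A gene counts once if any of its promoters holds the motif, whereas the shares of all promoters count each promoter singly. Some of the genes have several promoters, so the counts of genes and the shares of promoters are not strictly comparable.

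Stretches of 3 of these promoters are shown because the genes are textbook targets of SREBP with levels on which the results above and below turn. They run 5′ to 3′ along the gene's own strand, in lower case, with matches to the sterol response element and to the NF-Y motif (CCAAT or its reverse complement ATTGG) in capitals. Matches to Sp1 and the E-box are not marked. The *Hmgcs1* stretch (chr13:119690101-119690330, plus strand) holds the sterol response element TCACCCCAC, starting 137 bases before the RefSeq start, between NF-Y motifs. The *Insig1* stretch (chr5:28071176-28071220, plus strand) has 1 NF-Y motif, and that of *Fasn* (chr11:120824582-120824657, minus strand) has 3, of which 2 overlap.
Hmgcs1: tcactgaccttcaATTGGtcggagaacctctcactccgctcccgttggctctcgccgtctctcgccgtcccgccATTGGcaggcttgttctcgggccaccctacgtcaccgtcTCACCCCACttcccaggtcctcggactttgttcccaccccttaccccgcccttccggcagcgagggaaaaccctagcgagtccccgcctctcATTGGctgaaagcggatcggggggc
Insig1: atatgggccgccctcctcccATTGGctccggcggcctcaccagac
Fasn: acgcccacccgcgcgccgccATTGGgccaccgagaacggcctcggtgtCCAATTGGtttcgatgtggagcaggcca

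Of the 9 genes of fatty acid synthesis, *Fads2* rose, *Fasn* fell and 7 did not pass. The 2 calls are 22.2% of the group, against 11.3% of all tested genes, and the log2 fold change of 4 was below 0 and of 5 above 0, with a median of 0.14.

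*Fasn* (ENSMUSG00000025153.9, chromosome 11 of GRCm38 from 120805846 to 120824547, minus strand) encodes fatty acid synthase, which builds palmitate. It was at 306, 279, 268 and 316 CPM across S1 to S4, against 202, 210, 176 and 242 CPM across S5 to S8. The genotypes did not overlap. *Fasn* was 1.41-fold lower in KO, short of the study's fold threshold, with a log2 fold change of -0.49 (SE 0.11, edgeR quasi-likelihood adjusted p = 0.00552). Without any 1 sample the edgeR adjusted p lay between 0.00211 and 0.0257. None of its 43-base windows occurs in another gene's transcripts.

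The enzymes just upstream of *Fasn* did not pass. *Acly*, which yields cytosolic acetyl-CoA from citrate, was at -0.03 (SE 0.10) and *Acaca*, the acetyl-CoA carboxylase, at -0.24 (SE 0.16) on the log2 scale. *Acaca* shares 54.1% of its 43-base windows with *Gm5182*, so its counts are uncertain. *Fasn*, *Acly* and *Scd2* were among the most abundant genes of the list per kilobase of exon, at WT means of 26.7, 27.7 and 30.6 RPKM.

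*Fads2* encodes the delta-6 desaturase, the first desaturase of polyunsaturated fatty acid synthesis. It was at 0.349, 1.25, 2.12 and 1.07 CPM across S1 to S4, from 6, 23, 26 and 13 counts, against 9.06, 11.2, 9.01 and 11.6 CPM across S5 to S8, from 138, 138, 108 and 329 counts. Every KO sample lay far above the highest WT sample, S3. It was 8.6-fold higher in KO, a log2 fold change of 3.10 (SE 0.44, edgeR quasi-likelihood adjusted p = 0.000161). The exact two-sided permutation test over the 70 arrangements of 4 against 4 samples gave p = 0.0286, the smallest that it can give. Without any 1 sample the log2 fold change was 2.79 to 3.51, and edgeR's adjusted p was at most 0.00104. Only 0.386% of its 43-base windows occur in another gene, *Fads3*. *Fads2* (ENSMUSG00000024665.8) lies on chromosome 19 of GRCm38 from 10062765 to 10101746, on the minus strand.

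*Fads1*, the delta-5 desaturase that follows *Fads2* in the same pathway, was at 13.3, 16.4, 27.3 and 11.5 CPM across S1 to S4, against 12.3, 12.8, 8.93 and 13.9 CPM across S5 to S8. It did not pass, with a log2 fold change of -0.51 (SE 0.26, edgeR adjusted p = 0.25), opposite in sign to *Fads2*. Its highest value was in S3, the sample with the highest macrophage marker level. Per kilobase of exon, *Fads2* was at a mean of 0.364 RPKM in WT and 3.1 RPKM in KO, and *Fads1* at 3.56 RPKM in WT and 2.49 RPKM in KO.

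*Scd1* and *Scd2* encode stearoyl-CoA desaturases, which make monounsaturated fatty acids. *Scd2* was at 142, 170, 176 and 182 CPM across S1 to S4, against 182, 175, 152 and 226 CPM across S5 to S8, with overlapping groups and a log2 fold change of 0.14 (SE 0.12, edgeR adjusted p = 0.552). *Scd1* had 1, 19, 1 and 0 counts across S1 to S4, against 4, 15, 9 and 29 counts across S5 to S8. S1, S3 and S4 were below 3 counts, and its log2 fold change of 1.38 (SE 1.15, edgeR adjusted p = 0.518) was not distinguishable from 0 in these samples. The elongases *Elovl5* and *Elovl6*, which lengthen polyunsaturated and saturated chains, were at 0.21 (SE 0.11) and 0.18 (SE 0.22) and did not pass.

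**Figure D3:**
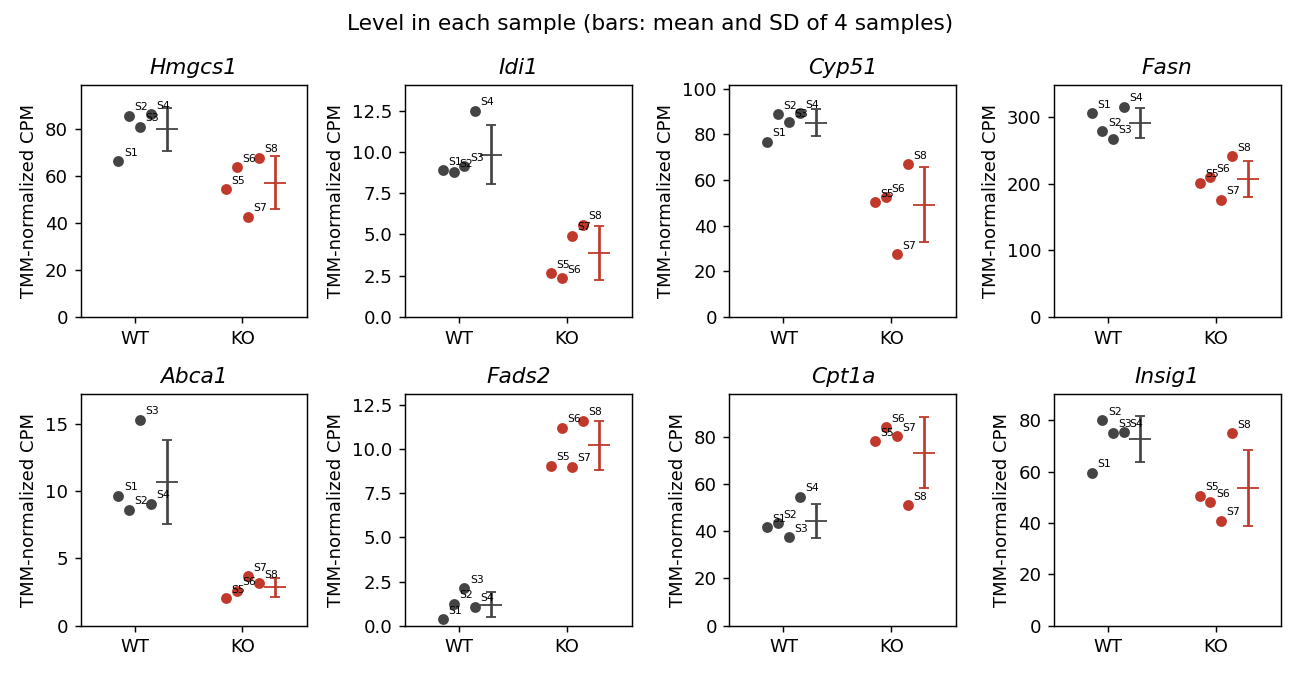
TMM-normalized CPM in each sample of the 7 genes with an adjusted p under 0.05 and of *Insig1*, with the mean and SD of the 4 samples of each genotype. The genotypes do not overlap for *Idi1*, *Cyp51*, *Fasn*, *Abca1* and *Fads2*, whereas S8 overlaps the WT samples for *Hmgcs1*, *Cpt1a* and *Insig1*.

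*Abca1* encodes a transporter that exports cholesterol to lipid-poor apolipoproteins. It was at 9.65, 8.61, 15.3 and 9.07 CPM across S1 to S4, against 2.04, 2.59, 3.67 and 3.17 CPM across S5 to S8. The genotypes did not overlap, and S3 was highest. *Abca1* was 3.71-fold lower in KO, a log2 fold change of -1.89 (SE 0.33, edgeR quasi-likelihood adjusted p = 0.00099). It was -1.67 (edgeR adjusted p = 0.00694) without S3, and no sample left out raised the adjusted p above that value. *Abca1* (ENSMUSG00000015243.4) lies on chromosome 4 of GRCm38 from 53030787 to 53159895, on the minus strand.

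Macrophages express *Abca1* strongly, so the macrophage marker score (the mean log2 CPM of 14 genes) is given beside it. The score was 3.67, 3.85, 5.14 and 4.02 across S1 to S4, against 2.01, 2, 1.39 and 1.07 across S5 to S8. Within WT, S3 had both the highest score and the most *Abca1*. Within KO, S7 and S8 had the lowest scores and the most *Abca1*. With the score as a covariate the log2 fold change was -1.30 (edgeR adjusted p = 0.687). The part of macrophage RNA in the *Abca1* difference cannot be told apart from genotype with these samples.

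**Figure D4:**
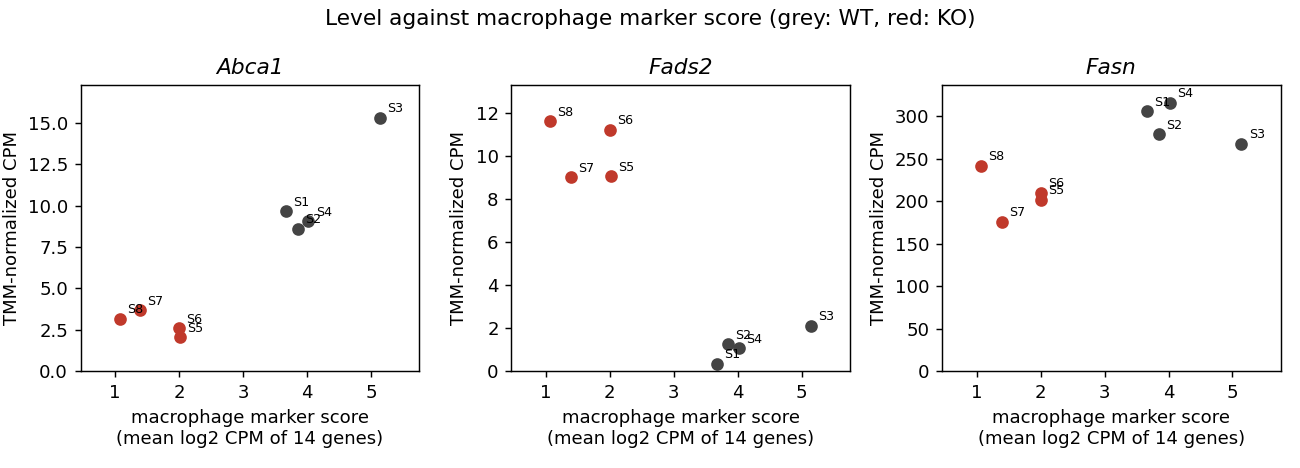
TMM-normalized CPM of *Abca1*, *Fads2* and *Fasn* in each sample against the macrophage marker score, the mean log2 CPM of 14 genes, with WT in grey and KO in red. The score is at least 3.67 in WT and at most 2.01 in KO, and S3 is highest in both the score and *Abca1*.

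The other exporter, *Abcg1*, which passes cholesterol to HDL particles, was at 52.7, 34.7, 49.2 and 21.9 CPM across S1 to S4, against 22.8, 23.4, 37.4 and 42.9 CPM across S5 to S8. The groups overlapped, with a log2 fold change of -0.32 (SE 0.25, edgeR adjusted p = 0.486). Within WT it ranged widely, from S4 to S1. *Stard4*, an intracellular cholesterol carrier that SREBP2 activates, was at 0.08 (SE 0.12, edgeR adjusted p = 0.744).

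*Cpt1a* encodes the liver-type carnitine palmitoyltransferase, which joins long-chain fatty acids to carnitine for import into mitochondria and oxidation. It was at 41.7, 43.5, 37.4 and 54.6 CPM across S1 to S4, against 78.1, 84, 80.2 and 51 CPM across S5 to S8. S5 to S7 were above every WT sample, but S8 lay below S4. The log2 fold change was 0.73 (SE 0.16, edgeR quasi-likelihood adjusted p = 0.00706), or 1.65-fold higher in KO, and the exact two-sided permutation p was 0.0571. Without S1, S2, S3, S5, S6 or S7 it missed the stricter threshold, with an edgeR adjusted p of up to 0.0287, and it was 0.0135 with scaling by library size alone. Without S8 it was 0.000731. *Cpt1a* (ENSMUSG00000024900.5) lies on chromosome 19 of GRCm38 from 3322334 to 3385733, on the plus strand.

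Other genes of these pathways were compared from a list of 59, of which 52 were tested. At the study's thresholds 1 was called, *Lpin1*, and at an adjusted p under 0.05 there were 2 that rose and 3 that fell, or 9.62% against 11.3% of all tested genes. *Lpin1*, a phosphatidate phosphatase of triglyceride synthesis, was at 69.4, 60.6, 64.2 and 57.3 CPM across S1 to S4, against 35, 32, 36.1 and 47.3 CPM across S5 to S8. The groups did not overlap and the log2 fold change was -0.74 (SE 0.14, edgeR quasi-likelihood adjusted p = 0.0022). None of the 16 tested genes of fatty acid oxidation and uptake passed at an adjusted p under 0.05 in edgeR's test or the DESeq2 Wald test, and 2 had an unadjusted p under 0.05 in edgeR. *Cd36* and *Fabp4*, named after their values were seen, fell under the filter on low counts.

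The remaining 4 calls were named after their values were seen. *Soat1*, which esterifies cholesterol for storage, rose by 0.49 on the log2 scale (SE 0.13, edgeR adjusted p = 0.0179), and *Npc1*, the lysosomal cholesterol transporter, by 0.53 (SE 0.15, edgeR adjusted p = 0.029). *Npc2*, its soluble lysosomal partner, had a log2 fold change of -0.58 (SE 0.12, edgeR adjusted p = 0.00296), and *Slc25a1*, the mitochondrial citrate carrier, of -0.63 (SE 0.18, edgeR adjusted p = 0.0351). The KO samples of *Npc1* overlapped the WT samples, and those of the other 3 did not.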

How the data were processed

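RNA-seq gene counts of 4 WT and 4 KO samples of sorted CD8+ TILs were used. The deposited table holds raw counts per gene, neither normalized nor pooled, which the authors made with STAR alignments to GRCm38 and featureCounts on GENCODE genes. Their own test used DESeq2 with a GC correction. Whether counting used strand is not given in the sources used here. The key of a plot in the study gives the genotype of each column, S1 to S8, but replicate numbers could not be matched.

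Counts were filtered with filterByExpr (minimum count 10), scaled by TMM and compared with edgeR 4.0.16 in R 4.3.3 (glmQLFit, glmQLFTest, Benjamini-Hochberg adjustment over 15378 genes). Calls needed a fold above 1.5 and an adjusted p under 0.01, or an adjusted p under 0.05. The SE was the size of the log2 fold change divided by the root of F. Floors of 3 counts reflect counting error alone, as reads copied by PCR are not separate molecules. The planned comparison of protein identity between paralogs was not run. The fit was tested on simulated data. Exon coordinates came from GENCODE M21 and promoters from RefSeq.

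The 35 genes and all lists were chosen with earlier results of these data known. Every gene of the list was named, with values in every sample for those under an adjusted p of 0.05, the regulators and selected enzymes, and, outside it, genes past both study thresholds. The macrophage score is the mean log2 CPM (prior count 2) of 14 genes. Alternatives were other scaling, filters, DESeq2 1.42.0, edgeR's likelihood ratio and glmTreat tests, a GC offset (mgcv 1.9.3), the macrophage covariate, and leaving out each sample.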

Additional observations from a re-analysis of the deposited data

Results flagged for a closer look

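In 3 of 70 groups of 4 samples (35 genes in 2 genotypes), 1 sample stood apart from the others on the log2 CPM scale by Dixon's ratio of its gap to the whole range. Chance gives about 1 in 20 such groups, or 3.5 of 70. *Idi1* in S4 (WT) had a ratio of 0.886, at 3.66 against 3.15 to 3.21 in the other WT samples. *Ebp* in S6 (KO) had a ratio of 0.862, at 4.98 against 4.39 to 4.47. *Cpt1a* in S8 (KO) had a ratio of 0.852, at 5.67 against 6.29 to 6.40, and S8 is the sample that overlapped the WT samples.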

How the results depend on the processing

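Of the 35 genes, 3 were called at the study's thresholds and 7 at an adjusted p under 0.05. The stricter count was 5 with no filter beyond a count above 0, with the DESeq2 Wald test and with edgeR's likelihood ratio test (2 higher, 3 lower each), 2 with glmTreat and 0 with the macrophage covariate. It was 2 to 5 with 1 sample left out, the 5 without S8. With library size alone it stayed 3 (1 higher, 2 lower), with *Cyp51* in place of *Cpt1a*. The other count was 0 with the covariate and 5 to 8 with 1 sample left out. It was 9 (2 higher, 7 lower) with no filter, which added *Hsd17b7* and *Insig1*, against 2217 of all 26530 genes in that fit. It was 8 with the DESeq2 Wald and likelihood ratio tests, against 2229 and 2122 of all 15378 genes. The stricter count was not taken over all genes in these 3 settings. With the covariate, 12 log2 fold changes changed sign, to -0.17 (*Fdps*), 0.01 (*Sqle*), -0.28 (*Tm7sf2*), 0.28 (*Ebp*), 0.13 (*Sc5d*), -0.16 (*Srebf2*), -0.02 (*Scap*), 0.03 (*Acly*), 0.02 (*Acaca*), -1.14 (*Scd1*), -0.08 (*Elovl5*) and 0.78 (*Fads1*). *Fdps* was at -0.01 with upper quartile scaling and -0.03 with library size alone, and *Srebf2* at -0.00 with the latter. With 1 sample left out, values of both signs occurred for *Mvk* (-0.05 to 0.42), *Pmvk* (-0.26 to 0.10), *Fdps* (-0.21 to 0.20), *Fdft1* (-0.19 to 0.04), *Srebf2* (-0.04 to 0.12) and *Acly* (-0.10 to 0.01). The cause of these changes was not tested. None of these genes passed with all samples. The 7 genes that passed kept their direction with the covariate. Because the macrophage score did not overlap between genotypes, that fit cannot show whether their changes depend on macrophage RNA. No paired analysis was possible because the columns carry no replicate numbers. P-values weigh the difference between genotypes against the spread among these samples, which were pools of 2 mice in WT and 1 mouse each in KO. Genes near the floor, *Scd1* above all, rest on few counts, and whether depth limits them was not tested.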
